A study of Mus musculus with 14 samples.

Results

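The bone morphogenetic protein (BMP) and transforming growth factor beta (TGF-beta) genes were followed in lists of chromatin regions called as differing between groups of Ezh2 knockout and control erythro-myeloid progenitors, sorted from the yolk sac of mouse embryos. The set held 44 genes by symbol, 28 of ligands, 7 of antagonists and 9 of receptors. Of these, 27 had at least 1 region in the lists (20 ligand, 4 antagonist and 3 receptor genes), out of 6687 genes with a region in all. The 6687 include genes of every kind and give no share, so shares of all protein-coding genes are given for each comparison below. The 17 genes with no region were the ligand genes Bmp4, Bmp5, Bmp8a, Bmp10, Bmp15, Gdf1, Mstn and Tgfb2, the antagonist genes Lefty1, Bmper and Fst, and the receptor genes Bmpr1a, Bmpr2, Tgfbr3, Acvr1, Acvr2a and Acvr2b. Absence from a list does not show that accessibility was the same, because values of regions that were not called are not used here.

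Ligands of this family are secreted dimers that bring together type I and type II serine/threonine kinase receptors, which then phosphorylate SMAD proteins that act on genes in the nucleus. Antagonists such as noggin, chordin and gremlin bind BMP ligands outside the cell and keep them from the receptors. In the early embryo BMP and Nodal signals pattern mesoderm, and BMP4 is needed for extraembryonic mesoderm and blood formation, while TGF-beta1 acts on blood cell growth and on yolk sac vessels.

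Ezh2 is the histone methyltransferase of Polycomb repressive complex PRC2, and many genes of developmental signals are among its targets in other cells. The samples were 5 Tie2 KO (Ezh2 fl/fl with 1 Tie2-Cre transgene), 3 Vav KO (Ezh2 fl/fl with 1 Vav-Cre transgene), 3 Vav WT and 3 Tie2 WT (both Ezh2 fl/fl without the transgene), all C57BL/6 and taken at E10.5. Floxed Ezh2 was thus shared by every group. The Tie2 promoter works in endothelial cells and so marks the blood that comes out of them, whereas the Vav promoter works in blood cells. Each ATAC-seq library, which reports open DNA by cutting it with the Tn5 transposase, came from 500 sorted cells. No list names Vav WT, so Vav KO was set against the Tie2 WT of the other line, and line and genotype cannot be told apart there. The labels do not say whether each sample came from a separate embryo. In such bulk libraries a larger share of cells with an open region and a more open region in each cell cannot be told apart.

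Each value below is the log2 fold change of a region and its adjusted p-value as the authors gave them, and all coordinates are in mm10. The lists hold regions that cover a gene start or end within 5 kb upstream of one. They hold no value per sample, so neither depth nor the spread between samples is known, and a single region has no other error here than its adjusted p-value. Levels of erythro-myeloid markers could not be checked, since the lists hold differences and not levels.

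Windows from 250 bases before to 50 bases after the gene start were in the RefSeq table for 31 of the 44 genes, and those of 6 lay wholly inside a called region. All but that of Bmp6 are shown, because they are sequence within the regions that differed in accessibility. The sequences are from RefSeq, assembly GRCm38.p6, 5′ to 3′ along the strand of the gene, with each CG dinucleotide in capitals. CG dinucleotides are dense in CpG islands, where PRC2 is known to bind. The ligand gene windows are Gdf10 (chr14:33923337-33923636, plus strand), Bmp8b (chr4:123104911-123105210, plus strand) and Nodal (chr10:61417722-61418021, plus strand). The antagonist gene window is Grem1 (chr2:113758599-113758898, minus strand), and the receptor gene window is Tgfbr1 (chr4:47352972-47353271, plus strand).
Gdf10: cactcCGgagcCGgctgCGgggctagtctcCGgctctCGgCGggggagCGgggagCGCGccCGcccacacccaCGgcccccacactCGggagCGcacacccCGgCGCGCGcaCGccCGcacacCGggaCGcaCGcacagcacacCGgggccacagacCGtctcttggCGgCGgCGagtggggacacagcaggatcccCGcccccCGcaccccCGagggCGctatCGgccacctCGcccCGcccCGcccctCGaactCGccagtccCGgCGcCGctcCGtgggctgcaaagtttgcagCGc
Bmp8b: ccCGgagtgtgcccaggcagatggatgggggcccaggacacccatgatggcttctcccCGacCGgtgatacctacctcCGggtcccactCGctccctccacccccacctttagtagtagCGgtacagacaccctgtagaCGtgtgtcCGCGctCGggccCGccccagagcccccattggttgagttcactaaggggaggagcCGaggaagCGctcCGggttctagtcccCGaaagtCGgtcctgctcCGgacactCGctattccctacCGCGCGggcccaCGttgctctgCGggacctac
Nodal: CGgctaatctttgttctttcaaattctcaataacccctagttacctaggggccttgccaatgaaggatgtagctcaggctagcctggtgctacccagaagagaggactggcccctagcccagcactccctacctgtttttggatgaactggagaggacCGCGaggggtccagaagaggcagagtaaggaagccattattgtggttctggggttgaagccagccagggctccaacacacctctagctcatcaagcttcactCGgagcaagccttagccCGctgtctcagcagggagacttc
Grem1: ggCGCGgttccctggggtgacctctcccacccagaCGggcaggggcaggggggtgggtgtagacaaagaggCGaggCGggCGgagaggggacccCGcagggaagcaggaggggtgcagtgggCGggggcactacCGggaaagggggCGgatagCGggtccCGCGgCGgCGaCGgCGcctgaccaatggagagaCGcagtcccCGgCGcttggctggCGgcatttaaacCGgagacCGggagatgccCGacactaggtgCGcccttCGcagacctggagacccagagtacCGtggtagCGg
Tgfbr1: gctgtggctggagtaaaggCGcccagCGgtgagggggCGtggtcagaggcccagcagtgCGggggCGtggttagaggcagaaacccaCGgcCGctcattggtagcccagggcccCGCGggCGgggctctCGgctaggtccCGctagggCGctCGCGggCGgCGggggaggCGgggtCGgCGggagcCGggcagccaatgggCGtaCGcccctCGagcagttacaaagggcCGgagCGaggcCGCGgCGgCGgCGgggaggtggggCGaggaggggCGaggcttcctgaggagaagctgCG
The Gdf10 window holds 42 CG dinucleotides, Tgfbr1 34, Grem1 28, Bmp8b 23 and Nodal 5. The regions over Gdf10, Grem1, Bmp8b and Nodal were higher in Tie2 KO than in at least 1 other group, and the one over Tgfbr1 was lower in Tie2 KO than in Vav KO.

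Tie2 KO was set against Tie2 WT to ask how open chromatin near these genes differed when Ezh2 was deleted with the endothelial driver. Every knockout sample carried a Cre transgene and no Tie2 WT sample did, so the presence of Cre and the deletion cannot be told apart. Regions were higher in Tie2 KO near 17 of the 44 genes (38.6%, against 11.5% of all protein-coding genes) and lower near 3 (6.82%, against 2.51%). The higher genes were 13 of 28 ligands, 3 of 7 antagonists and 1 of 9 receptors, and all 3 lower genes were ligands. The difference between roles was not tested, and 1 of 9 receptor genes (11.1%) is near the share of all genes. The 18 higher regions had a median log2 fold change of 1.08, between 0.62 and 1.98, in the authors' deposited table, where all 2959 higher regions had a median of 1.02.

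**Figure D1:**
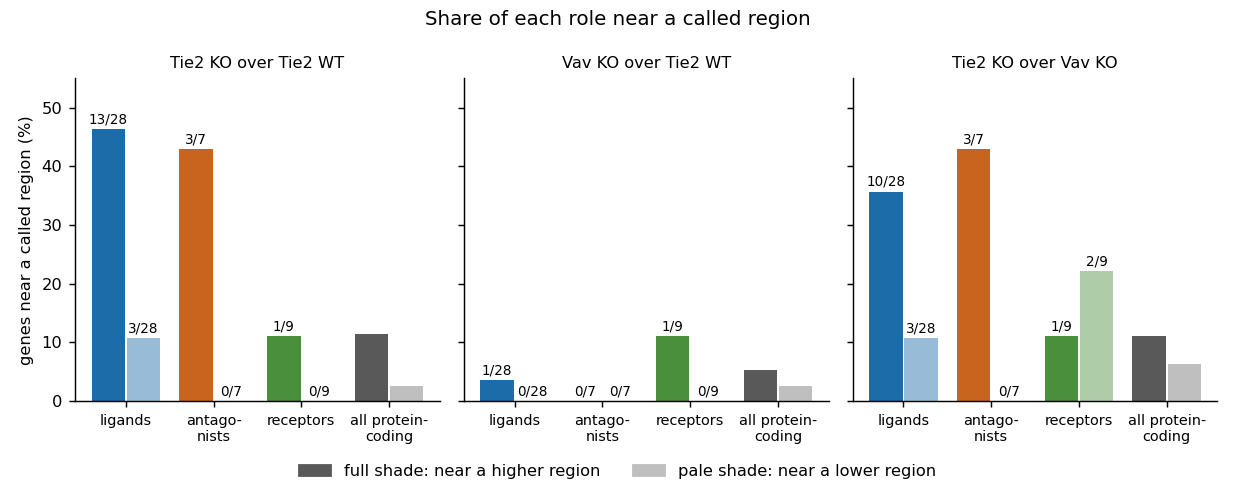
Percent of ligand, antagonist and receptor genes near a region called higher (full shade) or lower (pale shade) in each comparison, with counts above the bars and all protein-coding genes in grey. In Tie2 KO over Tie2 WT, 13 of 28 ligand and 3 of 7 antagonist genes lay near a higher region, against 1 of 9 receptor genes.

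Of the 10 BMP ligand genes, 5 had a higher region (against 11.5% of all protein-coding genes) and 0 a lower one (against 2.51%). The largest was at Bmp3, a family member that opposes signalling by other BMPs, where a region of 3399 bp on chromosome 5 from 98853502 to 98856900 covered the gene start. Its log2 fold change was 1.98, about 3.94-fold, in the authors' deposited table (adjusted p = 5.43e-08), and ranked 72 of the 2959 higher regions. At Bmp2, a ligand needed for heart and extraembryonic development, a region on chromosome 2 from 133551102 to 133552100 ended 58 bp upstream of the start and had a log2 fold change of 1.31 (adjusted p = 2.9e-06) in the authors' deposited table. Bmp7, a ligand of kidney and eye development, had 1 region of 4499 bp over its start, on chromosome 2 from 172938802 to 172943300, at 1.08 on the log2 scale (adjusted p = 7.27e-08) in the authors' deposited table. Regions at Bmp2 and Bmp3 thus differed in width and position, 1 being a narrow stretch before the start and the other reaching 2485 bp into the gene.

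The log2 fold change was 1.09 at Bmp8b, which acts in germ cell formation and brown fat (adjusted p = 0.000247), in the authors' deposited table. Bmp6, which controls iron through hepcidin, had the smallest change of the BMP ligands, 0.72 on the log2 scale (adjusted p = 2.01e-07) in the authors' deposited table. Bmp8a, a close copy of Bmp8b on the same chromosome, had no region, and nothing in the sources used here says how reads shared by such copies were placed. Bmp4, the closest relative of Bmp2, and Bmp5 had no region either.

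Activin and inhibin subunit genes all lay near a higher region, 3 of 3, against 11.5% of all protein-coding genes, but 3 genes are too few to compare shares. Inhba, which encodes the subunit of activin A, led them at a log2 fold change of 1.66 (adjusted p = 2.95e-05) in the authors' deposited table, on chromosome 13 from 16014202 to 16016300, over the start that the lists use. Inhbb, the subunit of activin B, had a region ending 1453 bp upstream at 0.98 (adjusted p = 9.12e-05) in the authors' deposited table. Inha, the subunit that turns activins into inhibins, had a region at 0.68 (adjusted p = 9.66e-06) in the authors' deposited table. That region, on chromosome 1 from 75505002 to 75507600, also covered the start of the neighbouring gene Obsl1, so it belongs to both genes.

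The GDF ligands went in both directions, with 4 of 11 higher (against 11.5% of all protein-coding genes) and 3 lower (against 2.51%). Gdf10, a relative of Bmp3, had a region of 2199 bp over its start at a log2 fold change of 1.25 (adjusted p = 5.77e-06) in the authors' deposited table. Gdf6 and Gdf7, close relatives that act in joints, eye and spinal cord, had regions at 0.65 and 0.75 (adjusted p = 3.26e-05 and 0.00302) in the authors' deposited table, the first ending 71 bp and the other 3947 bp upstream. Gdf11, which patterns the body axis, had a region ending 3283 bp upstream at 0.62 (adjusted p = 3.51e-05) in the authors' deposited table.

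The lower regions lay near Gdf9, Gdf5 and Gdf3. At Gdf9, an oocyte growth factor, a region of 1199 bp over the start fell by 1.23 on the log2 scale (adjusted p = 4.72e-05) in the authors' deposited table, and it was also paired with Uqcrq, a gene of mitochondrial complex III. Upstream of Gdf5, the joint-forming relative of Gdf6 and Gdf7, a region fell by 0.86 (adjusted p = 0.000151) in the authors' deposited table. Over the start of Gdf3, a ligand of pluripotent cells, a region on chromosome 6 from 122609602 to 122610900 had a log2 fold change of -0.59 (adjusted p = 6.59e-05) in the authors' deposited table, close to the smallest size that the lists hold, 0.58. Within the trio of Gdf5, Gdf6 and Gdf7, 2 members were thus higher and 1 was lower.

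Of the TGF-beta ligand genes Tgfb3, which acts in palate closure, had 2 higher regions. The one over the start, on chromosome 12 from 86077602 to 86079100, had a log2 fold change of 1.3 (adjusted p = 8.41e-06) in the authors' deposited table. The other, from 86080602 to 86081600 and 1560 bp upstream, had 1.75 (adjusted p = 0.000406) in the authors' deposited table. Both were also paired with Ift43, a gene of ciliary transport whose start lies on the far side. Tgfb1 and Tgfb2 had no region in this comparison, nor did Nodal.

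All 3 antagonist genes with a region encode secreted BMP binders. Grem1, an antagonist of limb and gut, had a region of 3399 bp over its start at a log2 fold change of 1.59 (adjusted p = 1.54e-06) in the authors' deposited table. Nog, which encodes noggin, had the widest region of the whole set, 5999 bp on chromosome 11 from 89297502 to 89303500, which contained the entire gene. It had a log2 fold change of 1.04 (adjusted p = 9.1e-08) in the authors' deposited table and ranked 10 in width among the 2959 higher regions. Chrd, which encodes chordin, had a region ending 1526 bp upstream at 1.23 (adjusted p = 0.000333) in the authors' deposited table. The only receptor gene was Bmpr1b, a type I BMP receptor of cartilage, at 1.08 (adjusted p = 6.24e-06) in the authors' deposited table. Its region of 1999 bp, on chromosome 3 from 142168002 to 142170000, covered the start that the lists use. The RefSeq start windows of Bmpr1b lie outside that region.

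**Figure D2:**
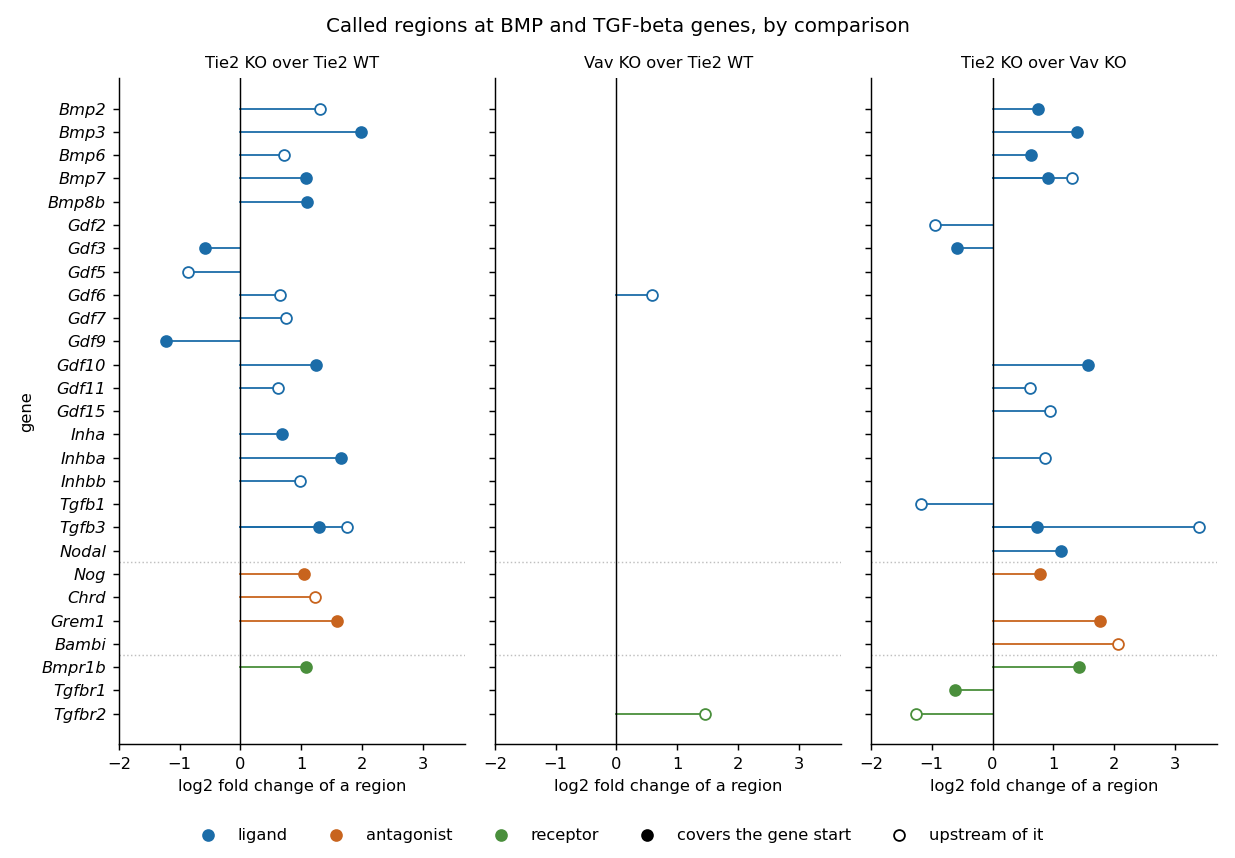
Log2 fold change of every called region at the 27 genes, 1 panel per comparison, coloured by role; filled points cover the gene start, open points lie upstream of it. The Tie2 KO over Tie2 WT panel reaches from -1.23 at Gdf9 to 1.98 at Bmp3, the Vav KO panel holds only Gdf6 and Tgfbr2, and the Tie2 KO over Vav KO panel reaches 3.39 at Tgfb3.

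Of the 18 higher regions, 10 covered the start of their member, a share near that of all 2959 higher regions, of which 55.6% covered a gene start. Of the 18, 4 were at least 3000 bp wide (Bmp3, Bmp7, Grem1 and Nog), a width reached by 9.97% of all higher regions. Counted by gene, 10 of 44 had a higher region over the start, against 7.11% of all protein-coding genes, and 2 a lower one, against 0.384%. The median width was 1899 bp for the regions of the set and 1599 bp for all higher regions, and the 3 lower regions were 1099 to 1299 bp wide. Wide regions cover a gene start more easily, and the part of width in these counts was not tested.

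**Figure D3:**
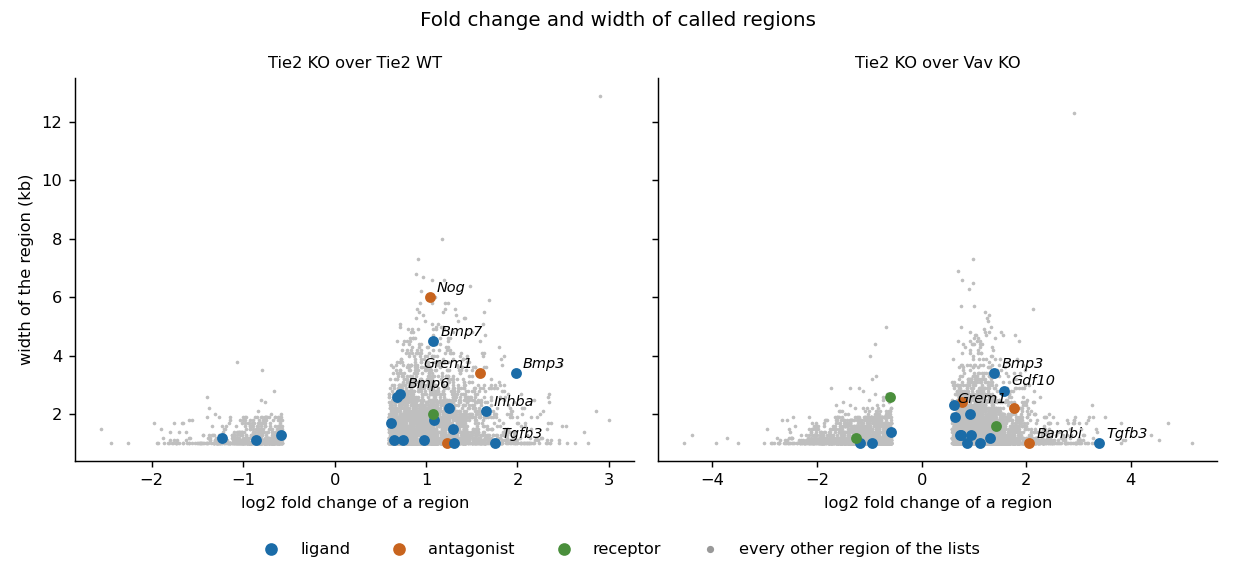
Width in kb against log2 fold change of each called region, with the regions of ligand, antagonist and receptor genes in colour and every other region in grey. Nog (5999 bp) and Bmp7 (4499 bp) are the widest of the set in Tie2 KO over Tie2 WT, and the Tgfb3 region upstream of the start, at 3.39, has the largest fold change of the coloured points in Tie2 KO over Vav KO.

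Some markers of other yolk sac cells also lay near called regions in the same comparison. Of 12 mesothelium and mesenchyme markers 8 lay near a higher region (66.7%, against 11.5% of all protein-coding genes), with 0 lower (against 2.51%). Among them were Twist2 at 2.15 and Pdgfra at 1.17 on the log2 scale in the authors' deposited table. Col1a1, Col3a1, Dcn and Postn of that list had no region. Of 12 visceral endoderm markers 5 were higher and 0 lower, and of 12 endothelial markers 5 were higher and 2 (Pecam1 and Lyve1) lower. The 5 include Tek, whose own regulatory sequence drives the Tie2-Cre transgene and whose region was 12899 bp wide. Tie2 WT lacks the transgene, and whether reads from the transgene added to the Tek call was not tested. Afp, Ttr, Apoa1 and Apob of the endoderm list had no region. Of 10 erythro-myeloid markers, 0 lay near a region of either kind. The part of other cells in the result on the BMP and TGF-beta genes was not tested.

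Vav KO was set against Tie2 WT to ask the same of deletion with the blood driver. Only Gdf6 and Tgfbr2 were near a higher region, 2 of 44 (4.55%, against 5.29% of all protein-coding genes), and 0 were near a lower one (against 2.59%). These shares are near those of all genes or below them. The Gdf6 region, on chromosome 4 from 9843202 to 9844200, had a log2 fold change of 0.59 (adjusted p = 0.000214) in the authors' deposited table, and lay inside the region that was at 0.65 in Tie2 KO against the same Tie2 WT samples. Tgfbr2, the type II receptor of TGF-beta, had a region ending 1638 bp upstream at 1.45 (adjusted p = 0.00125) in the authors' deposited table, and no region in Tie2 KO over Tie2 WT. The 16 other genes higher in Tie2 KO and all 3 lower ones were absent from these lists, yet their Vav KO values are unknown. Of the marker lists, 2 of 12 mesenchymal, 0 of 12 endoderm and 0 of 12 endothelial markers were higher, and 1, 1 and 0 were lower. Of 10 erythro-myeloid markers, Csf1r was higher, at 0.92, and Gata2 lower, at -1.55, on the log2 scale in the authors' deposited table.

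Tie2 KO was also set against Vav KO to ask where the knockouts differed, which uses the same Tie2 KO samples as above. Regions near 14 of the 44 genes were higher in Tie2 KO (31.8%, against 11.1% of all protein-coding genes) and near 5 lower (11.4%, against 6.35%). By role, 10 of 28 ligands, 3 of 7 antagonists and 1 of 9 receptors were higher, while 3 ligands and 2 receptors were lower. The 16 higher regions had in the authors' deposited table a median log2 fold change of 1.04, below the median of 1.16 over all 2873 higher regions. Over the gene start, 10 of 44 had a higher region (against 5.42% of all protein-coding genes) and 2 a lower one (against 0.671%).

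Tgfb3 had the largest difference, at the region 1560 bp upstream of its start, with a log2 fold change of 3.39 (adjusted p = 4.97e-06), in the authors' deposited table. It ranked 10 of 2873, and it is the very region, base for base, that was at 1.75 in Tie2 KO over Tie2 WT in the authors' deposited table. The region over the Tgfb3 start was at 0.73 (adjusted p = 0.00126) in the authors' deposited table, against 1.3 over Tie2 WT, so the upstream and start regions stood in the same order in both comparisons. Bmp3 also had the same region in both, at 1.39 over Vav KO (adjusted p = 5.02e-07) and 1.98 over Tie2 WT in the authors' deposited table.

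Among the other BMP ligands Bmp2 was at 0.75 (adjusted p = 0.000181) and Bmp6 at 0.63 (adjusted p = 1.43e-05) in the authors' deposited table. Bmp7 had 2 regions in place of the single wide one, at 0.92 over the start (adjusted p = 6.62e-05) and at 1.3 upstream (adjusted p = 0.00336) in the authors' deposited table, both inside the bounds of the wide region. Gdf10 was at 1.57 (adjusted p = 1.05e-05) and Gdf11 at 0.62 (adjusted p = 0.00491) in the authors' deposited table. Inhba had a region at 0.86 (adjusted p = 0.000727) in the authors' deposited table, upstream of the start from 16012502 to 16013500, which is not the region called over Tie2 WT. Inha, Inhbb, Bmp8b, Gdf6, Gdf7 and Chrd, higher over Tie2 WT, had no region here.

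Among the higher genes, Nodal, Gdf15 and Bambi had regions in this comparison alone. The Nodal region, 999 bp over the start of this ligand of the primitive streak, was at 1.12 (adjusted p = 0.000366) in the authors' deposited table. That of Gdf15, a ligand induced by cell stress, ended 2266 bp upstream and was at 0.95 (adjusted p = 7.79e-05) in the authors' deposited table. Bambi, a membrane decoy receptor without a kinase, had a region on chromosome 18 ending 1056 bp upstream at 2.06 (adjusted p = 0.000192) in the authors' deposited table, the largest among antagonists. Grem1 followed at 1.77 (adjusted p = 2.84e-05) and Nog at 0.78 (adjusted p = 2.73e-06) in the authors' deposited table, the Nog region being 2399 bp wide here. Bmpr1b was at 1.42 (adjusted p = 5.89e-05) in the authors' deposited table.

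**Figure D4:**
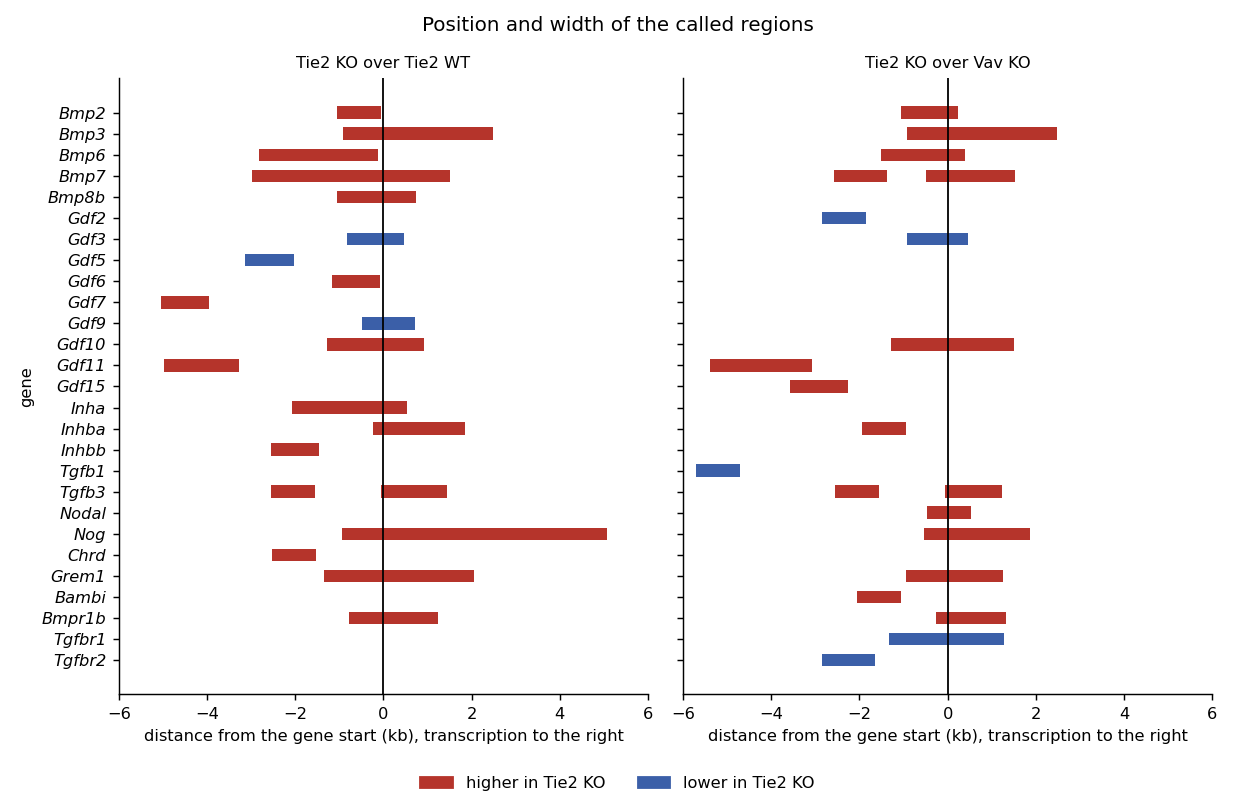
Called regions drawn to scale around the gene start at 0, in kb along the direction of transcription, red where higher and blue where lower in Tie2 KO. The Nog region over Tie2 WT spans 5999 bp, Bmp7 has 1 region over Tie2 WT and 2 over Vav KO, and Tgfb3 has 2 regions in each comparison.

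Tgfb1, Tgfbr1 and Tgfbr2 were among the 5 of 44 genes lower in Tie2 KO than in Vav KO (11.4%, against 6.35% of all protein-coding genes). Over the start of Tgfbr1, the type I receptor of TGF-beta, a region of 2599 bp on chromosome 4 from 47351902 to 47354500 had a log2 fold change of -0.61 (adjusted p = 1.86e-05) in the authors' deposited table, and ranked 13 in width among 1560 lower regions. Tgfbr2 was at -1.26 (adjusted p = 0.00135) in the authors' deposited table, in the very region that was at 1.45 in Vav KO over Tie2 WT, so these calls share the Vav KO samples. A region ending 4701 bp upstream of Tgfb1 was at -1.18 (adjusted p = 2.9e-05) in the authors' deposited table. The value at Tgfbr1 was close to the smallest size that the lists hold, 0.58. The third TGF-beta receptor gene, Tgfbr3, and the ligand gene Tgfb2 had no region. Both regions of the ligand gene Tgfb3 were higher, at 3.39 and 0.73 in the authors' deposited table.

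Gdf3 was lower here too, at -0.59 (adjusted p = 2.72e-05) in the authors' deposited table, the value it also had over Tie2 WT. Gdf2, which encodes BMP9, a ligand of endothelial cells, had a region ending 1838 bp upstream at -0.95 (adjusted p = 7.59e-05) in the authors' deposited table. Gdf2 lies next to Gdf10 on chromosome 14, with 5756 bp between the end of Gdf10 and the start of Gdf2 in the annotation of the lists. Over the Gdf10 start accessibility was thus higher in Tie2 KO than in Vav KO, at 1.57, and between the genes, 2919 bp past the Gdf10 end, it was lower in the authors' deposited table. In this comparison 5 of 12 mesenchymal, 5 of 12 endoderm and 5 of 12 endothelial markers were higher (against 11.1% of all protein-coding genes). In the same order 0, 0 and 1 were lower (against 6.35%). The 5 endothelial markers include Tek, whose regulatory sequence drives the Tie2-Cre transgene. The Tek region was 12299 bp wide, at 2.92 on the log2 scale in the authors' deposited table. Vav KO lacks the Tie2-Cre transgene, and the part of transgene reads in this call was not tested. Of 10 erythro-myeloid markers, Gata2 was higher, at 0.92 on the log2 scale (adjusted p = 0.0471), in the authors' deposited table. That p-value is close to the largest in the lists, 0.0479. Cd34 was lower at -1.09 (adjusted p = 0.000426) and Csf1r at -1.33 (adjusted p = 4.08e-05) in the authors' deposited table. The part of other cells in these results was not tested.

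The rest of the pathway was taken from a list of 57 other genes. Over Tie2 WT, 14 of them lay near a region higher in Tie2 KO (24.6%, against 11.5% of all protein-coding genes) and 1 near a lower one (1.75%, against 2.51%). The higher ones included 4 of 14 extracellular antagonists, 3 of 9 genes of latency and processing, 1 of 8 SMADs (Smad9) and 2 of 5 targets (Id2 and Id4). Among the larger changes, the authors' deposited table gives, on the log2 scale, 1.75 at Ltbp3, which binds latent TGF-beta, 1.66 at the BMP co-receptor gene Rgma and 1.28 at Pmepa1, a target and inhibitor of TGF-beta signalling. Dand5, an antagonist of Nodal, was the lower gene, at -1.29 in the authors' deposited table.

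In Vav KO over Tie2 WT, 5 of the 57 lay near a higher region (8.77%, against 5.29%), with 0 lower (against 2.59%). They were led by the inhibitory SMAD gene Smad7 at 1.80, Rgmb at 1.52, Fstl3 at 1.01 and the receptor gene Acvr1c at 0.76 on the log2 scale in the authors' deposited table. In Tie2 KO over Vav KO, 14 were higher (24.6%, against 11.1%) and 3 lower (5.26%, against 6.35%). Rgma at 2.16, Pmepa1 at 1.95 and the Nodal co-receptor gene Tdgf1 at 1.47 were among the larger changes of the higher ones in the authors' deposited table. The lower ones were the Nodal inhibitor gene Lefty2 at -1.08, Fstl3 at -1.04 and Skil, a SMAD corepressor, at -0.88 in the authors' deposited table. None of Smad1, Smad2, Smad3, Smad4, Smad5 or Smad6 had a region in any of the 3 comparisons. Within each comparison most protein-coding genes had no region either.

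Sequence content was counted in these 31 start windows. The 11 of genes higher in Tie2 KO over Tie2 WT held a median of 26 CG dinucleotides per 300 bases, from 5 to 42, and the 20 of genes with no region there a median of 15, from 1 to 54. Of those 11 windows, 3 (Bmp8b, Gdf10 and Grem1) lay inside the higher region, 2 (Bmp6 and Inha) partly inside and 6 (Bmpr1b, Chrd, Gdf11, Gdf7, Inhba and Inhbb) outside. All 17492 protein-coding genes in the table had a median of 13, and the 1874 near a higher region 19. By role, receptor gene windows held a median of 30.5 (8 genes), antagonists 31 (3 genes) and ligands 11 (20 genes). Bmpr1b, the 1 receptor gene of 9 near a higher region, held 5, in a window outside that region. Whether CG content went with the calls was not tested. GGCGCC, a GC-rich motif bound by SMADs of the BMP branch, which itself contains a CG, was searched on both strands and was in 7 of the 31 windows (22.6%), against 15.4% of all and 24.4% of protein-coding genes near a higher region of Tie2 KO over Tie2 WT. Those 7 were Gdf10, Grem1, Chrd and Tgfbr1, which had a called region, and Bmpr1a, Bmpr2 and Gdf1, which had none. CAGACA, a SMAD box, was searched in the same way and was in 6 (19.4%, against 19% of all), and the palindrome GTCTAGAC in 0 (against 0.212% of all).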

How the data were processed

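ATAC-seq libraries of 14 samples in 4 groups are described by the labels. The genome build in the submitters' processing notes is mm10. The tools in the submitters' processing notes, given with neither role nor order, are HOMER 4.10, MACS2 2.1.2, Picard, SAMtools 1.3.1, Bowtie2 and FastQC. The sources used here do not say how libraries were scaled, whether duplicates were kept, whether cut sites were shifted for Tn5, or which test made the calls. Each of the 6 lists used here holds regions higher or lower in 1 of 3 comparisons. Every region has a log2 fold change in the deposited lists, per the file headers. It also has an adjusted p-value from the authors, along with other measures in bp, its width and its distance to the gene start. Group abbreviations in the list names were read as Tie2 KO, Vav KO and Tie2 WT.

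Members were matched by symbol in Python 3.11.15 with pandas 2.3.3, and all 44 of their lines carried the RefSeq identifier of that symbol. Background shares are over 21900 protein-coding genes of GRCm38.p6, since the regions tested are not listed. No test of sets or roles was run. The counting was tested on simulated data. The members and lists were chosen with earlier results of these data known. Every member with a region is named, and of other pathway genes the 4 with the largest change per comparison and direction. Some genes that this rule takes are not reported here. Smad9, Id2, Id4, Smad1 to Smad6 and the markers were named after their values were seen. The rule for printed windows took Inhba, Gdf10, Grem1 and Bmpr1b, but those of Inhba and Bmpr1b lay outside their regions. Bmp8b, Nodal and Tgfbr1 were added after their values were seen. For genes with several windows the one listed first was used.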

Additional observations from a re-analysis of the deposited data

Results flagged for a closer look

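Tie2 KO set directly against Vav KO also asks whether the differences of the knockouts from the shared Tie2 WT were unequal. It called a difference at these regions, each of which overlapped a region called in Tie2 KO or in Vav KO over Tie2 WT. The overlapping calls share the Tie2 KO or the Vav KO samples, so their directions are not independent. Tie2 WT is also not the control of the Vav line. In the authors' deposited table the log2 fold changes of Tie2 KO over Vav KO were 3.39 and 0.73 at the regions of Tgfb3, 1.77 at Grem1, 1.57 at Gdf10, 1.42 at Bmpr1b and 1.39 at Bmp3. They were 1.3 and 0.92 at Bmp7, 0.78 at Nog, 0.75 at Bmp2, 0.63 at Bmp6, 0.62 at Gdf11 and -0.59 at Gdf3. At Tgfbr2 the value was -1.26, where Vav KO over Tie2 WT was at 1.45 in the authors' deposited table. The labels give no batch, and other differences between the Cre lines cannot be told apart from the timing or place of the deletion.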

How the results depend on the processing

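Counts of members and of the 57 other pathway genes stayed within 1.5 times the reported count with an authors' adjusted p of at most 0.01 and with regions paired with 1 gene. For members they also did so with matching by gene identifier. The settings of adjusted p and identifier could not change the member counts. The largest adjusted p of a member region was 0.00491, and all 44 member lines carried the identifier of their symbol. With an absolute log2 fold change of at least 1, members in Tie2 KO over Tie2 WT numbered 11 higher and 1 lower, in Vav KO over Tie2 WT 1 higher, and in Tie2 KO over Vav KO 8 higher and 2 lower. The other pathway genes then numbered 8, 3 and 8 higher in these comparisons. With regions that cover the gene start alone, members numbered 10 higher in Tie2 KO over Tie2 WT, 0 higher in Vav KO over Tie2 WT and 2 lower in Tie2 KO over Vav KO. Other pathway genes then numbered 0 lower in Tie2 KO over Tie2 WT, 1 higher in Vav KO over Tie2 WT, and 7 higher and 0 lower in Tie2 KO over Vav KO. These settings keep fewer regions by construction. No paired analysis was possible because the lists hold no value per sample, and for the same reason no sample could be left out and depth limits are unknown.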

Other observations

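Dand5 had regions of both directions in different comparisons. A region ending 436 bp upstream of its start was at -1.29 in Tie2 KO over Tie2 WT, and another, 2636 bp upstream, was at 1.32 in Tie2 KO over Vav KO in the authors' deposited table. Smad7 had a region 4864 bp upstream at 1.80 in Vav KO over Tie2 WT and another 764 bp upstream at 0.90 in Tie2 KO over Vav KO in the authors' deposited table. Fstl3, a follistatin relative that binds activin, was at -1.04 in Tie2 KO over Vav KO and at 1.01 in Vav KO over Tie2 WT in the authors' deposited table, comparisons that share the Vav KO samples. Pmepa1 was at 1.28 over Tie2 WT and 1.95 over Vav KO in Tie2 KO, each time at a region 4668 bp upstream, in the authors' deposited table.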
